A study of Mus musculus with 6 samples.

Results

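Integrins and laminins, the receptors and a main class of ligands by which cells hold to the extracellular matrix, were followed through 6 mouse glioma libraries. The members are the rows whose gene symbols name an integrin alpha or beta chain or a laminin alpha, beta or gamma chain. The rule uses names and no measured value. It found 37 genes, 26 integrin chains and 11 laminin chains, among 46951 rows of the tumor table and 46952 rows of the table of cultured cells, and each of the 37 had a row in both tables.

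All groups came from mouse glioma-initiating cells (GICs), tumor cells able to seed a new glioma, of the line numbered 7080. These were injected into the brains of young and of old mice of the C57BL/6 strain. The tumor groups were a young mouse, an old mouse, and an old mouse given NMN before the tumor (NMN-before), with ms7080 as the cell line label, and each tumor was taken when symptoms appeared. The GIC groups, labelled 7080X1, carry the same names (young, old and old with NMN before) and were cultures established again from such tumors. NMN is not spelled out in the labels; it usually stands for nicotinamide mononucleotide, from which cells make NAD+. The sources used here give no ages, no dose of NMN and no number of mice, and do not say whether a culture came from the same tumor as a tumor library. Only 1 line was used, and each of the 6 groups is 1 library, so there are no replicates and no test, SD or p-value. A difference between groups is a difference between 2 libraries.

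Integrins are pairs of an alpha and a beta chain that span the cell membrane and tie the matrix outside to actin inside. The alpha chain largely sets the ligand: collagens, laminins, proteins carrying the RGD peptide such as fibronectin and vitronectin, or counter-receptors on other cells for the leukocyte integrins. Laminins are trimers of an alpha, a beta and a gamma chain and are the scaffold of basement membranes. In the brain these membranes surround blood vessels and line the surface, and gliomas are known to spread along vessels and to depend on integrin contacts with the matrix. Itgam and Itgax with Itgb2, and Itgal with Itgb2, form receptors of microglia, macrophages and other white blood cells, which are a large part of the host tissue in a glioma.

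The promoters of 4 members are shown first because these genes stand at the ends of the differences described below. Itgam and Itgax are leukocyte alpha chains that are neighbors on chromosome 7 and differed in NMN-before tumors; Itga8 and Itgb5 had the largest NMN-before to young differences in GICs. RefSeq promoters of the build GRCm38.p6 were matched by symbol for 23 of the 37 genes. Each sequence is the 250 bases before the start site, 5′ to 3′ along the gene. In the first pair capitals mark GAGGAA, the core that the myeloid factor PU.1 is known to bind, and in the second pair GGGCGG, the GC box, on either strand.
Itgam (chr7:128062390-128062639, plus strand): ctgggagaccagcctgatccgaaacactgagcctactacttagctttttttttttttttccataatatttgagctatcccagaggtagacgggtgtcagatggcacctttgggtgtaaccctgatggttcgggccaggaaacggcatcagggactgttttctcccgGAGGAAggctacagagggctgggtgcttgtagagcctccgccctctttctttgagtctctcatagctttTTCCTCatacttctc
Itgax (chr7:128129300-128129549, plus strand): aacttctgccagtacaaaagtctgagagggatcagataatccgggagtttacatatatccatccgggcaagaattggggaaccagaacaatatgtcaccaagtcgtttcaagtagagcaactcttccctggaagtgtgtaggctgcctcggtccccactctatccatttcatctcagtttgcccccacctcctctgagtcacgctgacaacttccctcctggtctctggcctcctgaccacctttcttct
Itga8 (chr2:12301945-12302194, minus strand): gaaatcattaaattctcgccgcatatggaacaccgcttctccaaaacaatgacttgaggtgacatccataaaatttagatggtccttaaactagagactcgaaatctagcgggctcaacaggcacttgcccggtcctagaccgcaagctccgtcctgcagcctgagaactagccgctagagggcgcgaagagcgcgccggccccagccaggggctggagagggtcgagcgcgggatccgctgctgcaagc
Itgb5 (chr16:33829415-33829664, plus strand): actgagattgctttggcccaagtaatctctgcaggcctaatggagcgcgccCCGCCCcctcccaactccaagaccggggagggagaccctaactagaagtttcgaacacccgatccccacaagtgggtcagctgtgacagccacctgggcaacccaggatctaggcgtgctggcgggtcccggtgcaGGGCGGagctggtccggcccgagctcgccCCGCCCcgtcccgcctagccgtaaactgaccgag
GAGGAA, read on both strands, was found at 2 places before Itgam and at 0 before Itgax, and GGGCGG at 0 places before Itga8 and at 3 before Itgb5. Among 32851 RefSeq promoters cut to the same length, 23.3% held GAGGAA and 32.7% held GGGCGG. Among the 26 promoters of matched members, 13 held GAGGAA and 9 held GGGCGG. The motifs do not overlap in letters, and a match in such a window describes the letters only.

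The authors deposited FPKM, fragments per kilobase of transcript scaled by library size, so levels can be compared between genes per length. The recovered depth was 11.3 to 18.8 M fragments (M for mega) for tumors and 9.68 to 12.7 M for GICs. From it come the 95% counting intervals given below, which cover counting error only. The GIC label was checked against 7 marker genes, of which 6 reached 1 FPKM in the cultures. In GICs the neural progenitor genes Sox2 (52.1, 65.1 and 65.6 FPKM in young, old and NMN-before) and Nes (123, 154 and 138 FPKM) were high. White blood cell and vessel genes were near the bottom of the GIC scale, with the endothelial cadherin Cdh5 at most 0.0614 FPKM and the microglial receptor Csf1r at most 0.110 FPKM. In tumors these host genes were present, and their values stand beside the results they move with.

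In both tables Itgb1, the beta chain shared by most integrins of solid tissue, was the highest member. Its level in tumors was 157 FPKM in young, 144 in old and 145 in NMN-before, and in GICs 277, 237 and 253 FPKM. Within each table these values lie close together, with Itgb1 first in every library. Itgb1 made up 69.0% to 77.4% of the summed FPKM of all integrin beta chains in tumors and 95.4% to 96.5% in GICs.

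**Figure D1:**
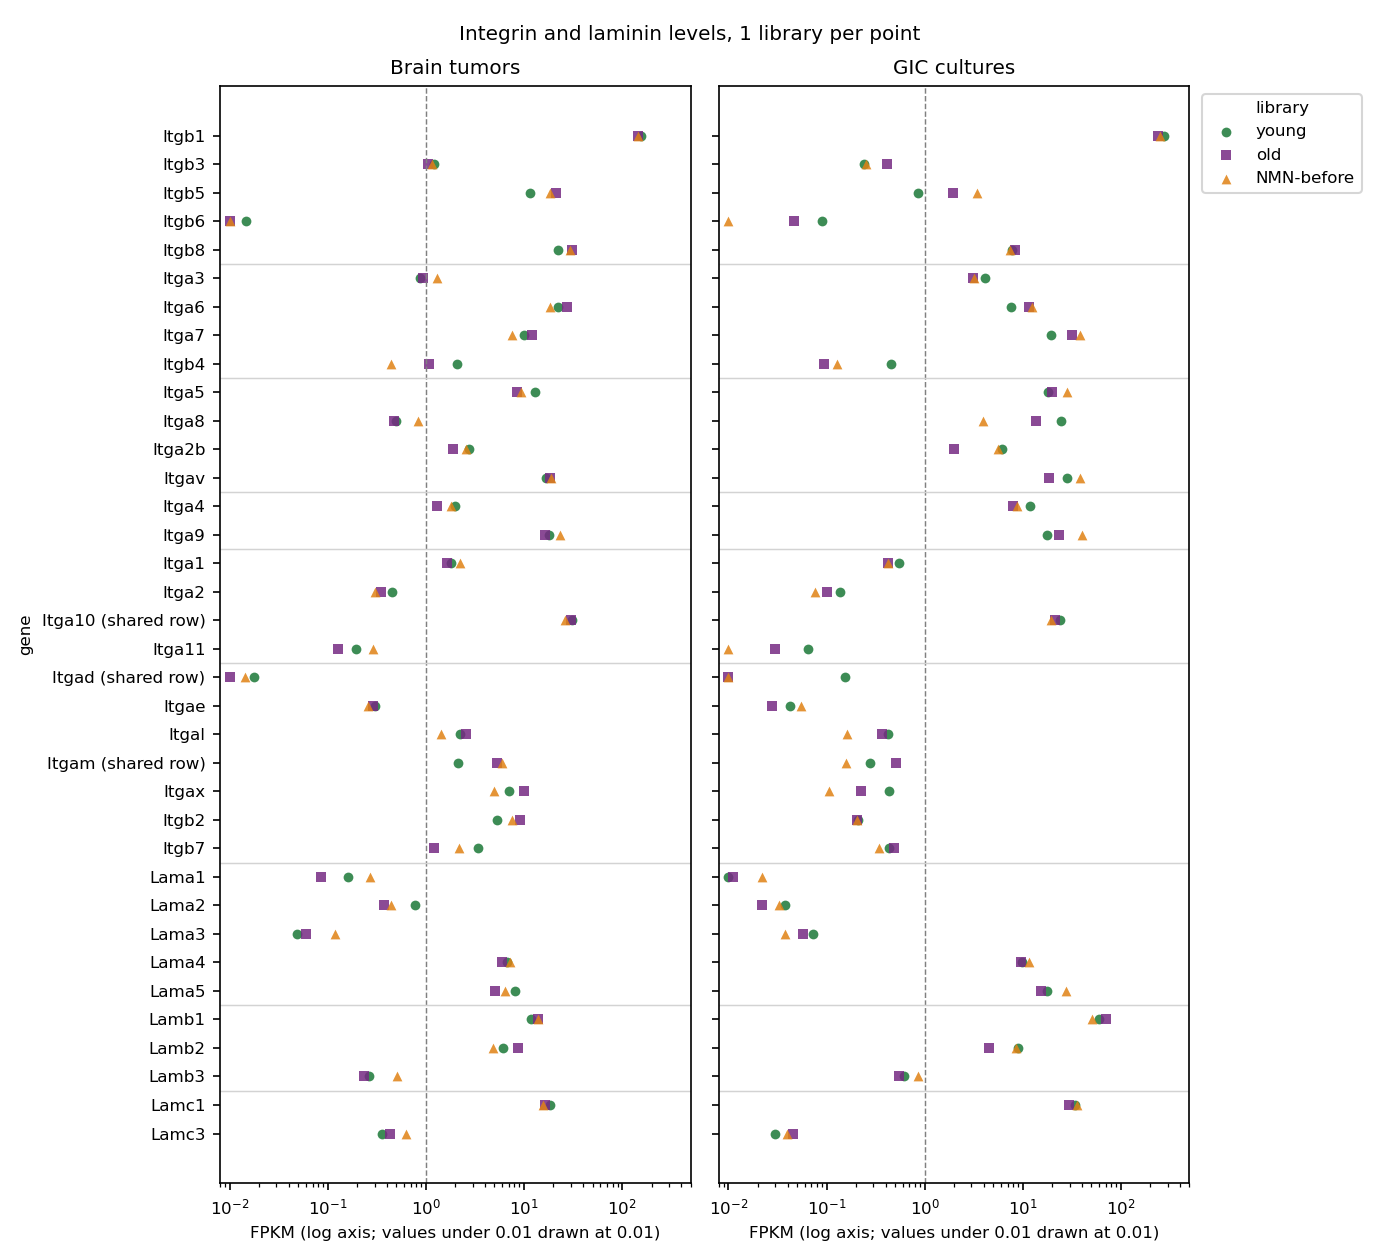
Level of integrin and laminin chains in tumors (left) and GIC cultures (right), in FPKM on a log axis, 1 point per library; the dashed line is 1 FPKM and grey lines part the groups of chains. Itgb1 is highest in all 6 libraries, and the leukocyte chains Itgam, Itgax, Itgb2, Itgal and Itgb7 lie above 1 FPKM in tumors and below it in GICs.

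Of the 37 members, 26 reached 1 FPKM in at least 1 tumor and 19 in at least 1 GIC culture. The 11 that stayed lower in tumors were Itga8, Itga2, Itga11, Itgae, Itgad, Itgb6, Lama1, Lama2, Lama3, Lamb3 and Lamc3, between 0 and 0.839 FPKM. In GICs 13 integrins and 5 laminins stayed under 1 FPKM, and 10 members did so in all 6 libraries. All 7 leukocyte chains were in the GIC group under 1 FPKM, the highest of their values being 0.510 FPKM for Itgam in old GICs. The row named for Itga10, a collagen-binding chain of cartilage, is shared with other genes, so its 26.3 to 31.2 FPKM in tumors and 19.3 to 24.2 in GICs are not the level of Itga10 alone. The row of Itgam also names RP23-144N15.3, and the row of Itgad also names Gm17831.

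The first question is whether integrins and laminins differed between tumors of an old and a young mouse. A difference here is that of log2(FPKM + 1), which understates changes of low genes, among rows with at least 1 FPKM in 1 library of the table; "2-fold" means a log2 difference at least 1 in size. No member of the 26 that passed was 2-fold higher or lower in the old tumor. The background over 14335 rows was 1.6% higher and 1% lower, 2.6% in either direction. Of the 26 members 12 were higher and 14 lower, and their median log2 difference was -0.06, against -0.01 over all rows tested. Among 25 members with a counting interval for the ratio of old to young, that interval lay above 1 for 10, below 1 for 9 and included 1 for 6. Such intervals were not computed for the other rows, so this count describes the members alone, and how much tumors of a group vary is not known from 1 library.

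Leukocyte chains gave the 2 differences nearest to the line. Itgam, the CD11b chain of microglia, macrophages and neutrophils (GRCm38 chromosome 7, 128062640 to 128118491, plus strand), had 2.13 FPKM in young, 5.25 in old and 5.95 in NMN-before tumors. The young tumor was the low one, and the other two overlapped in their counting intervals of 4.65 to 5.93 and 5.44 to 6.50 FPKM. The ratio of old to young was 2.47, with a counting interval of 2.01 to 3.04. Its log2 difference was 0.999, just under the line, and it passed the line with a pseudocount of 0.5 (1.13) or 0.1 (1.26) or after rescaling to TPM (1.17). All of these values belong to the row that Itgam shares.

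Itgb2, the beta chain that pairs with Itgam, Itgax and Itgal, was at 5.32 FPKM in the young tumor, 9.02 in the old and 7.46 in the NMN-before tumor. Its ratio of old to young was 1.70 (1.42 to 2.03). Itgax, the CD11c chain of dendritic cells and activated microglia, was at 7.06, 10.1 and 4.9995 FPKM, so here the old tumor was the high one. Itgal, the chain of LFA-1 on lymphocytes and other white blood cells, was at 2.25, 2.58 and 1.43 FPKM. Its old-to-young ratio of 1.15 had an interval that includes 1 (0.915 to 1.44). Itgb7, which pairs with Itga4 or Itgae on gut-homing lymphocytes, went the other way, with 3.38 FPKM in young, 1.22 in old and 2.18 in NMN-before. Its log2 difference between old and young was -0.98, the ratio being 0.362 (0.242 to 0.529). This was the lowest old-to-young ratio among the members that passed 1 FPKM in tumors. The settings that took Itgam past the line upward (either smaller pseudocount, or TPM) also took 1 member past it downward. The value of Itgb7 itself under these settings was not listed.

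Microglia markers were also higher where Itgam and Itgb2 were. All 10 of 10 were higher in the old than in the young tumor, and all 10 were higher in the NMN-before than in the young tumor. In the second case Sall1 and Aif1 were so by log2 differences of only 0.03. The summed level of the 10 was 104 FPKM in young, 168 in old and 149 in NMN-before, and no marker of the 10 was at 0. Sall1 was also at 16.8, 14.5 and 23.2 FPKM in GICs, so here it does not mark microglia alone. The microglial receptor P2ry12 was at 1.82, 5.86 and 5.57 FPKM, and Spi1, which encodes PU.1, at 4.73, 7.10 and 7.81. Of 9 monocyte and macrophage markers 7 were measured at 1 FPKM or more and 6 of these were higher in old; their sum was 165, 337 and 209 FPKM, most of it Lyz2. T and NK cell markers summed to 6.58, 7.30 and 3.68 FPKM, and Ptprc, the CD45 gene of white blood cells, was at 3.38, 4.001 and 2.98 FPKM. Of 6 B cell markers the antibody genes Igkc (5.55, 77.02 and 34.1 FPKM) and Ighm (4.10, 34.6 and 13.6 FPKM) were 2-fold higher in old than in young, and the other 4 stayed under 1 FPKM. Neutrophil markers summed to 2.71, 3.01 and 6.03 FPKM over 7 genes, with Elane at 0 in all 3 tumors and Ly6g at 0 in young and old. Fewer cells of a type and less RNA per cell cannot be told apart in such bulk samples, and the part of cell numbers in the leukocyte chains was not tested.

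**Figure D2:**
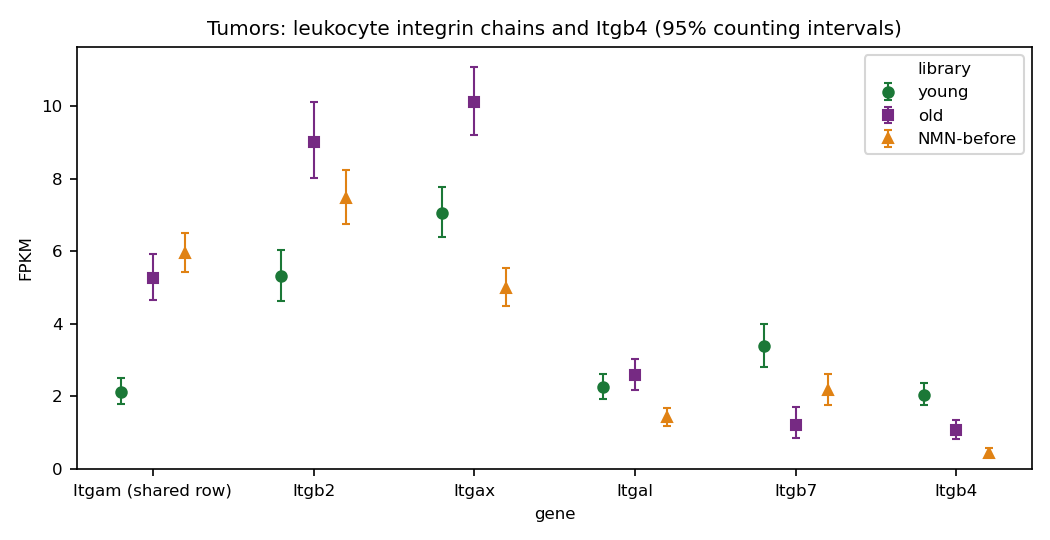
FPKM in the 3 tumor libraries for the leukocyte chains that passed 1 FPKM and for Itgb4, with 95% counting intervals as bars. Itgam is low in the young tumor alone, Itgax is highest in the old tumor at 10.1 FPKM, and Itgb4 descends from 2.05 through 1.07 to 0.442 FPKM.

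Among the chains outside the leukocyte group, those that bind RGD proteins were mixed. Itgb5, which pairs with Itgav to bind vitronectin, was at 11.6 FPKM in young, 21.1 in old and 18.4 in NMN-before tumors. The young tumor was the low one, and the ratio of old to young was 1.83 (1.63 to 2.04). Microglia marker sums had the same order, and in GICs Itgb5 was at only 0.856 to 3.41 FPKM. The part of host cells in its tumor level was not tested. Itgb8, whose pair with Itgav is known to activate latent TGF-beta, was at 22.3, 31.1 and 29.5 FPKM, again lowest in young. Itgav itself was at 16.9, 18.4 and 18.8 FPKM, a difference of 0.12 on the log2 scale between old and young. Itga5, the fibronectin receptor chain, was lower in the old tumor, at 8.53 FPKM against 13.0 in young and 9.34 in NMN-before.

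The laminin-binding chains Itga6 and Itga7 were modestly higher in the old tumor. Itga6, a chain used as a marker of glioma stem cells, was at 22.3 FPKM in young, 27.5 in old and 18.6 in NMN-before. Itga7, a muscle and glioma laminin receptor, was at 9.92, 11.97 and 7.60 FPKM. Itgb4, the partner of Itga6 in hemidesmosomes of epithelia (chromosome 11, 115974709 to 116008412, plus strand), was at 2.05, 1.07 and 0.442 FPKM. Its ratio of old to young was 0.519 (0.394 to 0.690). The order young, old, NMN-before held for Itgb4 with counting intervals that do not overlap. Itga9, which binds tenascin C and osteopontin, was at 17.9, 16.2 and 23.1 FPKM, highest in NMN-before. The remaining chains that passed in tumors, Itga1, Itga2b, Itga3, Itga4 and Itgb3, lay between 0.870 and 2.78 FPKM. Of these Itga1, Itga2b, Itga4 and Itgb3 were lowest in the old tumor and Itga3 in the young. The old-to-young intervals of Itga1, Itga3 and Itgb3 include 1. Itga2b was at 2.78, 1.87 and 2.56 FPKM and Itga4 at 1.98, 1.31 and 1.803 FPKM.

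The laminin chains of the tumors were mainly Lamc1, Lamb1, Lama5, Lama4 and Lamb2. Lamc1, the gamma chain of most laminins, was at 18.3, 16.4 and 15.6 FPKM in young, old and NMN-before, and Lamb1, the beta chain it most often joins, at 11.8, 13.9 and 13.9 FPKM. Lama5 and Lama4, alpha chains known from vessel walls, together made up most of the laminin alpha FPKM. In GICs, where 9 of 11 endothelial markers stayed under 1 FPKM, they were at 15.3 to 27.6 and 9.64 to 11.6 FPKM. In tumors Lama5 was at 8.01 FPKM in young, 5.08 in old and 6.46 in NMN-before, and Lama4 at 6.64, 6.03 and 7.26. Lama5 thus took 51.2% of summed laminin alpha FPKM in the young tumor and 43.7% in the old, while Lama4 took 42.5% and 51.9%. Lamb2, a beta chain of mature vessel and synaptic laminins, was at 6.14, 8.60 and 4.84 FPKM, highest in old. Of 11 endothelial markers 10 were lower in the old than in the young tumor, with sums of 119 FPKM in young, 104 in old and 122 in NMN-before. The median log2 difference of old minus young was -0.19 and 0 were 2-fold lower. The row of Egfl7, shared with other genes, held 52.1, 45.1 and 45.4 FPKM of the sums and was at 11.5 to 21.8 FPKM in GICs. Fibroblast markers were lower in 7 of 8 in the old than in the young tumor, with sums of 140, 105 and 151 FPKM. Of the 8, 3 were 2-fold lower there, and 5 were 2-fold higher in NMN-before than in old, with 0 the other way. The shares of all rows were 1% and 1.86%. Pdgfra, also a marker of oligodendrocyte precursors, held 72.6, 70.2 and 70.1 FPKM of the sums in a row shared with Mir7025. No endothelial or fibroblast marker was at 0. The sum of choroid plexus markers had the order of Lamb2, with 25.4, 155 and 10.5 FPKM, and most of it was Ttr. Of 3 measured, 3 were higher in old than in young and 3 were lower in NMN-before than in old. Between NMN-before and young they were split, with 1 of 3 higher in NMN-before and 2 lower. None of the 5 was at 0. Erythroid markers also had the order of Lamb2, with sums of 169, 224 and 57.9 FPKM. The part of these cell types in the laminin values was not tested.

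The second question is how the tumor of the old mouse given NMN beforehand stood against the old tumor. This difference shares the old library with the first, so the comparisons are not independent. No member of 26 passed the line in either direction; the background was 1.86% higher and 1.25% lower, 3.11% in all. Members were higher in 15 and lower in 11 cases, and their median log2 difference was 0.02 against 0.01 over all rows. The difference nearest to the line downward was that of Itgax, lower by a ratio of 0.495 (0.430 to 0.570; log2 difference -0.89).

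Itgam and Itgax parted in this comparison. Itgam had a ratio of NMN-before to old of 1.13 with an interval that includes 1 (0.974 to 1.32), while Itgax was lower. Microglia markers were higher in 4 of 10 and lower in 6 of 10, with a median of -0.09. Of 4 laminin-binding chains 3 were lower in the NMN-before tumor and 1, Itga3, was higher (0.938 and 1.31 FPKM in old and NMN-before). The interval of the Itga3 ratio includes 1 (0.996 to 1.99). The ratios of NMN-before to old were 0.677 (0.627 to 0.730) for Itga6 and 0.635 (0.562 to 0.716) for Itga7. Astrocyte markers were lower in 7 of 8 there, their sum being 2927 FPKM in old and 2606 in NMN-before, and neuron markers higher in 9 of 10, with sums of 228 and 494 FPKM. The part of such differences in tissue in the values of Itga6 and Itga7 was not tested.

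Against the young tumor, the NMN-before tumor had 1 member past the line upward, Itgam with a log2 difference of 1.15, and 1 downward, Itgb4 with -1.08. The background was 2.79% higher and 0.977% lower, 3.77% in all, so 2 of 26 members is near the share over all rows. The ratio was 2.80 (2.31 to 3.38) for Itgam and 0.215 (0.155 to 0.297) for Itgb4. With rows that name 1 gene only, Itgam drops out and no member is 2-fold higher. Members had a median of -0.09 against -0.01 over all rows, with 11 higher and 15 lower.

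**Figure D3:**
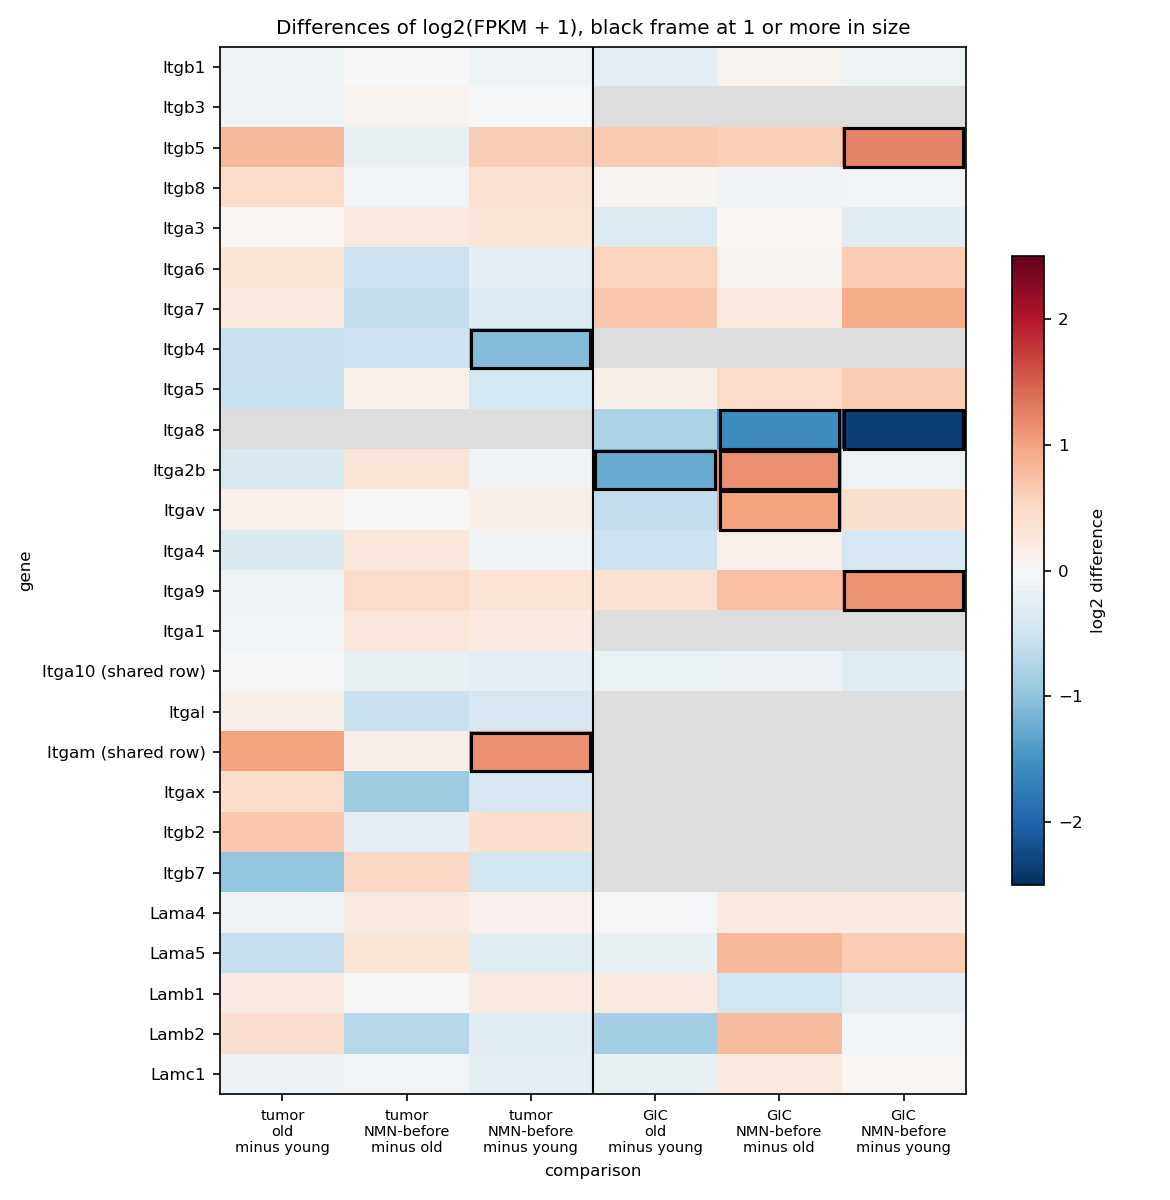
Differences of log2(FPKM + 1) for chains that passed 1 FPKM in a table, in 3 comparisons of tumors (left) and 3 of GICs (right); red is higher and blue lower in the first-named library, grey marks members under 1 FPKM, and a black frame marks a size of 1 or more. Frames stand at 2 places in tumors and 7 in GICs, the deepest being Itga8 in NMN-before against young GICs at -2.36. The comparisons within a table share libraries.

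GIC cultures allow the same comparisons in cells without most host cells. These cells were grown outside the brain, so the cultures do not show what tumor cells did in the mouse. Old against young GICs gave 0 of 19 members 2-fold higher and 1 lower, Itga2b; the background over 12809 rows was 1.23% higher and 1.58% lower, 2.8% in all. Members were higher in 7 and lower in 12 cases, with a median of -0.18 against 0.01 over all rows, and of 6 laminins 5 were lower. NMN-before against old GICs, which shares the old library, gave 2 higher (Itga2b and Itgav) and 1 lower (Itga8), on a background of 3.26%, 2.3% and 5.57% in all. There 14 members were higher and 5 lower, with a median of 0.24 against 0.00 over all rows. NMN-before against young GICs gave 2 higher (Itgb5 and Itga9) and 2 lower (Itga8 among them), on a background of 3.58%, 3.04% and 6.62% in all. Rescaled to TPM, the share of rows past the line that were higher in this comparison was 42.5% in place of 54.1%, and the 4 members kept their calls.

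Itga8 had the largest difference of the 19 members measured in GICs. It encodes the alpha chain of a receptor for nephronectin, tenascin C, osteopontin and other RGD proteins (chromosome 2, 12106632 to 12301922, minus strand). Its level was 24.4 FPKM in young, 13.8 in old and 3.95 in NMN-before GICs, in descending order with intervals far apart. The log2 difference was -0.78 for old minus young, -1.58 for NMN-before minus old and -2.36 for NMN-before minus young, and the last ratio was 0.162 (0.140 to 0.186). Itga8 made up 17.4% of summed integrin alpha FPKM in young, 10.3% in old and 2.201% in NMN-before GICs. In tumors Itga8 was low and in another order, at 0.491, 0.469 and 0.839 FPKM.

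Of the other RGD-binding alpha chains Itgav and Itga2b were lowest in old GICs, and Itga5 was lowest in young. Itgav (chromosome 2, 83724397 to 83806916, plus strand) had 28.6 FPKM in young, 18.4 in old and 37.9 in NMN-before, with a ratio of NMN-before to old of 2.06 (1.93 to 2.21). Itga2b, the platelet fibrinogen receptor chain (chromosome 11, 102453297 to 102470122, minus strand), was at 6.15, 1.98 and 5.56 FPKM. The young and NMN-before cultures had overlapping intervals for Itga2b (5.43 to 6.96 and 4.78 to 6.44 FPKM), and the old culture was the low one with a ratio to young of 0.322 (0.239 to 0.424). Its usual partner Itgb3 was under 0.5 FPKM in all 3 cultures, and the platelet genes Ppbp, Gp9 and Gp1ba were at 0 in all 3. Pf4 was at 0 in young and old and at 0.460 FPKM in NMN-before, and the only platelet marker row above 1 FPKM was that of Gp1bb, which is shared with Sept5. Itga5 was at 18.1, 20.04 and 28.5 FPKM.

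**Figure D4:**
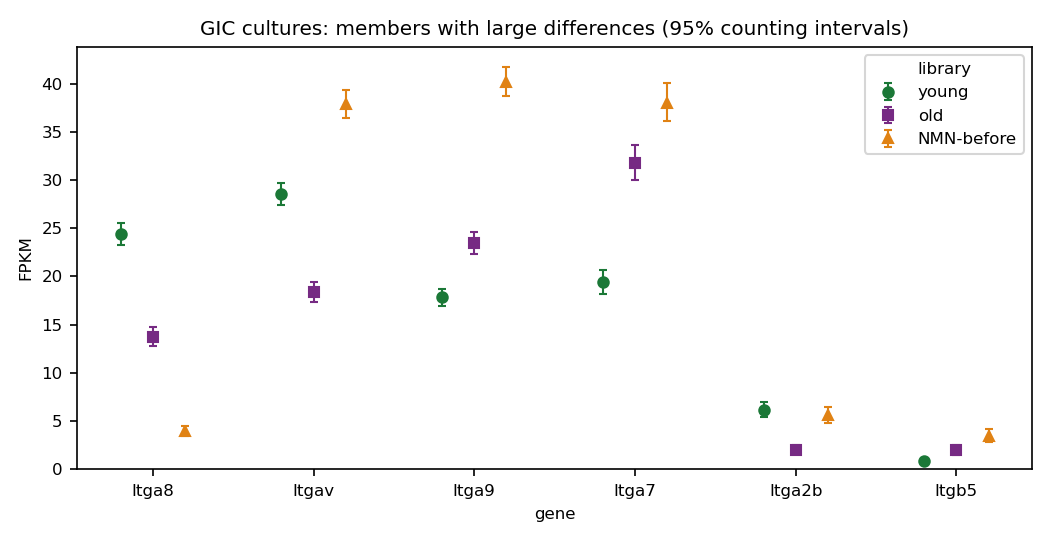
FPKM in the 3 GIC libraries for 6 members with large differences, with 95% counting intervals as bars. Itga8 descends from 24.4 to 3.95 FPKM, Itga9, Itga7 and Itgb5 ascend in the order young, old and NMN-before, and Itgav and Itga2b are lowest in the old culture.

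Itga9, Itga7 and Itga6 were each highest in NMN-before GICs. Itga9 (chromosome 9, 118606690 to 118901003, plus strand) had 17.8 FPKM in young, 23.5 in old and 40.2 in NMN-before, with a ratio of NMN-before to young of 2.26 (2.12 to 2.40). Itga7 was at 19.4, 31.8 and 38.0 FPKM, and its ratio of NMN-before to young was 1.96 (1.804 to 2.13). Itga6 was at 7.59, 11.6 and 12.3 FPKM, with the young culture low. Its ratio of NMN-before to old was 1.06, with an interval that includes 1 (0.935 to 1.21). Itga4, the chain that binds Vcam1 and fibronectin, was highest in young, at 11.97 FPKM against 7.94 in old and 8.70 in NMN-before. Itga3, another laminin receptor chain, was also highest in young, at 4.14 FPKM against 3.07 in old and 3.21 in NMN-before.

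Itgb5 was the beta chain that differed most in GICs (chromosome 16, 33829665 to 33949338, plus strand). It was at 0.856 FPKM in young, 1.93 in old and 3.41 in NMN-before, with a ratio of NMN-before to young of 3.98 (2.67 to 6.03) and intervals that do not overlap. Even so it made up at most 1.29% of summed beta chain FPKM, while Itgb8 was between 7.48 and 8.31 FPKM. In tumors, too, Itgb5 was lowest in the young library, but there at 5.70% to 10.1% of beta chain FPKM.

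Laminin chains in GICs were led by Lamb1, Lamc1 and Lama5. Lamb1 was at 60.4, 70.5 and 51.1 FPKM in young, old and NMN-before, highest in old, and Lamc1 at 34.2, 29.8 and 35.5 FPKM, lowest in old. Lama5 was at 17.5, 15.3 and 27.6 FPKM, with a ratio of NMN-before to old of 1.802 (1.70 to 1.91), and Lama4 at 9.85, 9.64 and 11.6 FPKM. Lama5 and Lama4 again carried nearly all laminin alpha FPKM, Lama5 with 61.2% to 70.3% of it. Lamb2 was at 8.93, 4.48 and 8.51 FPKM, lowest in old with a ratio to young of 0.502 (0.430 to 0.584), and its share of laminin beta FPKM was 12.8%, 5.94% and 14.1%.

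**Figure D5:**
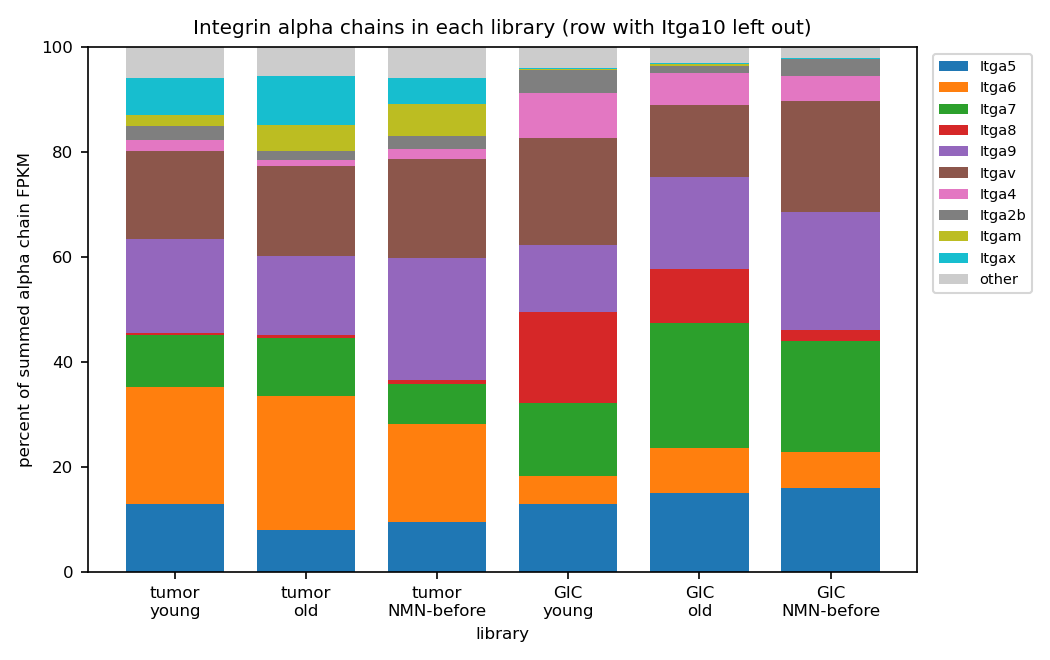
Percent of the summed FPKM of integrin alpha chains taken by each chain in each library, without the shared row of Itga10. In GICs Itga8 (red) narrows from 17.4% to 2.201% and Itga9 (purple) widens from 12.7% to 22.4%, while in tumors Itga6, Itga9 and Itgav hold the largest shares.

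The summed FPKM of integrin alpha chains, without the row of Itga10, was 140, 134 and 179 in young, old and NMN-before GICs and 100.2, 108 and 99.4 in the tumors. Itga9, Itga7 and Itgav together led the NMN-before culture with 22.4%, 21.2% and 21.1% of that sum. In young GICs Itgav was first with 20.4% and Itga8 second with 17.4%. In tumors Itga6 was first in young (22.2%) and old (25.6%) and Itga9 in NMN-before (23.2%).

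Markers of glial lineages differed between the GIC cultures as well. Of 7 oligodendrocyte precursor markers 5 were measured, and all 5 were higher in NMN-before than in young GICs, with sums over the list of 315 FPKM in young, 382 in old and 889 in NMN-before. Of 8 astrocyte markers 7 were measured and 6 were higher, with sums of 154, 172 and 394 FPKM. Sox10 and Aqp4 were at 0 in the NMN-before culture and under 0.3 FPKM in the other two. Among microglia markers Siglech was at 0 in all 3 cultures, 8 of 10 stayed under 1 FPKM, and the sum was 21.7 to 31.3 FPKM, most of it Sall1. The part of glial state in the values of Itga8, Itga9 and Itgb5 was not tested.

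Tumor and GIC differences share no library and can be set side by side for the 18 members that passed in both tables. For old minus young, 13 of 18 had the same sign, 5 higher in both and 8 lower in both (72.2%, against 47.7% of 12196 rows). Itgb5, Itga6 and Itga7 were among those higher in both, with log2 differences of 0.82, 0.29 and 0.25 in tumors and 0.66, 0.55 and 0.68 in GICs. Lama5, Itga4 and Itga2b were lower in both, with -0.57, -0.37 and -0.40 in tumors and -0.18, -0.54 and -1.26 in GICs. For NMN-before minus old 11 of 18 had the same sign (61.1% against 46.9%), and for NMN-before minus young 9 of 18 (50% against 49.1%). Any sign counts here, in members as in all rows, however small the difference. The 18 include the shared row of Itga10, and Lama4, whose old-to-young intervals include 1 in tumors (0.798 to 1.03) and in GICs (0.875 to 1.09). Rescaling to TPM turned the tumor sign of Itga10 for old minus young. It also turned those of Lamb1, Itgav and Itgb1 for NMN-before minus old. The shares are counts over genes of 1 pair of libraries in each table and describe those libraries only.

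The partners of integrins and laminins were read from 5 lists. Of 29 adhesion complex genes, which link integrins to actin, 28 were measured in tumors and 1 was past the line in old against young, against 2.6% of all rows. That was Parvb, beta-parvin, lower at 10.1 FPKM in old and 12.7 in NMN-before against 21.5 in young (log2 difference of old minus young -1.02). The list had 11 higher and 17 lower members and a median of -0.11. In GICs 26 were measured; old against young had 15 higher and 11 lower, with only Ptk2b, the FAK relative Pyk2, past the line at 0.447 against 1.97 FPKM (all rows 2.8%). In NMN-before against young GICs 17 were higher and 9 lower (median 0.30) and 2 were past the line, against 6.62% of all rows, and Flna, filamin A, an actin crosslinker that can hold integrins inactive, was past the line at 64.3 FPKM in young, 102 in old and 139 in NMN-before. Ptk2b was past it downward, at 0.441 FPKM in NMN-before, and NMN-before against old GICs had 0 calls in this list. Zyx, zyxin of focal adhesions, followed at 32.1, 44.4 and 60.5 FPKM, while Actn4 went the other way, at 149, 150.03 and 102 FPKM. Of 5 genes that hold integrins inactive, Flna among them, 4 were measured, and Flna in that same comparison was the only call in either table.

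Basement membrane partners of laminin differed little in tumors, with 0 of 11 measured genes past the line in each of the 3 comparisons. In GICs 1 of 9 was past it in NMN-before against old, and 2 of 9 in NMN-before against young, where the shares over all rows were 5.57% and 6.62%. Agrn, agrin, which binds laminin and dystroglycan, was at 20.7, 22.1 and 49.8 FPKM, and Ntn4, netrin-4, which binds laminin gamma chains, at 0.716, 0.954 and 2.54 FPKM. The collagen IV genes Col4a1 and Col4a2, the network partners of laminin in vessels, were under 1 FPKM in all GICs and at 19.3 to 26.9 and 9.46 to 16.4 FPKM in tumors. Dystroglycan and the other laminin receptors gave 0 calls of 14 measured genes in tumors and of 13 in GICs. Dag1, dystroglycan itself, was at 36.6 to 41.0 FPKM in tumors and 30.0 to 42.4 in GICs.

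Ligands of integrins other than laminins held the widest differences in GICs. Of 16 measured there, 3 were past the line in old against young, all lower: Fn1, Tnc and the row of Spp1, where 2.8% of all rows were past it. In NMN-before against old 3 were higher (Fn1, Tnc and Npnt) and 3 lower (the row of Spp1, Icam1 and Vcam1), 6 of 16 against 5.57% of all rows. In NMN-before against young Fn1 was higher and the same 3 were lower, 4 of 16 against 6.62% of all rows. Fn1, fibronectin, was at 45.8, 16.3 and 93.5 FPKM, so it was lowest in the old culture, as its receptor chain Itgav was, while its receptor chain Itga5 was not. Npnt, nephronectin, a ligand of Itga8, was at 7.41, 5.585 and 13.3 FPKM, and was highest where Itga8 was lowest. Tnc, tenascin C, a ligand of Itga8 and Itga9, was at 28.8, 4.58 and 23.9 FPKM, lowest in old, which is the order of neither chain. Spp1, osteopontin, in a row shared with Gm42793, descended as Itga8 did, from 237 through 97.3 to 40.9 FPKM. Vcam1, a ligand of Itga4, was at 36.7, 46.2 and 11.1 FPKM, and Icam1, a ligand of Itgb2 integrins, at 11.2, 6.72 and 0.852 FPKM. In tumors 24 ligands were measured and calls were few: 0 in old against young, 1 in NMN-before against old and 2 in NMN-before against young, with 2.6%, 3.11% and 3.77% of all rows. They were Nov, an integrin-binding matrix protein of the CCN family (3.165, 3.15 and 8.19 FPKM), and the row of Spp1 (21.2, 41.5 and 61.4 FPKM), which ascends in tumors and descends in GICs.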

How the data were processed

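RNA was measured in 3 tumor and 3 GIC libraries. Per the labels' protocols, RNA was extracted with TRIzol, ribosomal RNA was removed, and stranded libraries were sequenced in pairs. The submitters' processing notes name STAR 2.5.4b, Cufflinks 2.2.1, Cuffdiff, Trim Galore 0.6.2, bcl2fastq 1.8.4 and the build GRCm38. The authors deposited FPKM, in 1 table for tumors and 1 for GICs, which were treated as normalized separately. The sources used here name neither the gene annotation nor whether counting used strand, so a gene and its overlapping or antisense partner (Itga7 and Mettl7b, Itga4 and Cerkl, Itga1 and Pelo, for example) may share fragments.

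Differences are of log2(FPKM + 1) for rows that reach 1 FPKM in a library of the table. All 3 values are given for members with a 2-fold difference or at least 10 FPKM; counts over the members include an item that is not reported here by name or drawn. With 1 library per group no test was possible. Simulated data with known depth and known folds were run through the steps, and a pass limit was set for the recovered depth alone.

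Depth was recovered from the low values of single-transcript genes (length 1500 to 12000 bases), which were whole fragments within 0.05 for 96.3% to 97.9% of values. Exact 95% intervals use it with the length of the main coding transcript in GENCODE M21 (GRCm38), and that of Itgam takes its shared row as Itgam alone. The row of Itga10 got none for ratios.

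The members, the lists and the named promoters were chosen with earlier results of these data known. The alternatives were other pseudocounts, filters, scalings and row classes. Python 3.11.15, NumPy 2.4.6, pandas 2.3.3, SciPy 1.17.1 and Matplotlib 3.10.9 were used.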

Additional observations from a re-analysis of the deposited data

How the results depend on the processing

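Of 126 summary values over members under 7 alternatives, 106 kept within their bounds and 20 moved. Of 612 single-gene values 606 kept their call, 6 passed the line and 0 changed sign past it. The single-gene values cover only members with a 2-fold difference in a comparison of the table or at least 10 FPKM in a library. Other members near the line, such as Itgb7 in tumors, were not among them. With a pseudocount of 0.1, tumor old against young had 1 member higher and 1 lower, NMN-before against old 1 higher and 2 lower, NMN-before against young 2 higher, and GIC old against young 1 higher; the shares of all rows past the line in these 4 comparisons were then 5.89%, 6.64%, 8.13% and 6.82%. With a pseudocount of 0.5, and likewise after rescaling to TPM, tumor old against young had 1 higher and 1 lower, NMN-before against old 1 higher and NMN-before against young 2 higher; the shares of all rows were 3.83%, 4.61% and 5.71% with the pseudocount and 4.56%, 5.01% and 5.88% with TPM. With a minimum of 5 FPKM, which leaves fewer genes, the tumor median of old minus young was 0.22, tumor NMN-before against young had 0 lower, and GIC NMN-before against young had 1 higher and 1 lower, with 1.48%, 3.26% and 5.54% of all rows past the line in these comparisons. Without a filter the GIC median of NMN-before minus old was 0.0151. With rows that name 1 gene, tumor NMN-before against young had 0 higher (3.73% of all rows in either direction). Median-of-ratios scaling moved none of the 18 summary values. TPM or that scaling turned the sign of 5 small differences, of Itga10, Lamb1, Itgav and Itgb1 in tumors and Lamc1 in GICs.

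No paired analysis was possible because each group is 1 library, and for the same reason leaving out a library gives no value. Each value rests on 1 library, so the spread between tumors or cultures is unknown, and intervals cover counting error only. Members under 1 FPKM in a table, among them the 7 leukocyte chains in GICs, were left out of its counts and medians.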
